A study of Mus musculus with 6 samples.

Results

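Axon guidance genes were described in mouse small-intestinal organoids cultured with low-density lipoprotein (LDL) or with phosphate-buffered saline (PBS). The set was every protein-coding gene of the deposited table whose symbol belongs to the netrins, their receptors Dcc, Neo1 and Unc5a to Unc5d, the slits and Robo receptors, the semaphorins, the plexins and neuropilins, the ephrins and Eph receptors, or the collapsin response mediator proteins (Dpysl genes). The rule used symbols only and found 74 genes of 55416 rows. Organoids are cultures in which intestinal crypts, embedded in a laminin-rich matrix, grow into closed epithelial structures without the stroma, vessels and nerves of the gut. Crypts came from the pooled duodenum and jejunum of 3 mice, all C57BL/6 with the genotype label WT, whose age and sex were not given in the sources used here. Organoids of each mouse received either LDL at 50 μg/ml or PBS for 5 days, which gave 3 LDL and 3 PBS libraries of total RNA, paired by mouse.

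Guidance ligands and receptors were named for steering growing axons, and the same proteins act between epithelial cells. Netrins and slits are secreted cues, read by Dcc, neogenin and Unc5 receptors and by Robo receptors. Semaphorins signal through plexins, with neuropilins as co-receptors for the secreted class 3 members. Eph receptor tyrosine kinases bind membrane-anchored ephrins on the neighbouring cell. In the intestine, EphB2 and EphB3 lie highest at the crypt base and ephrin-B ligands lie higher up, and this arrangement positions cells along the crypt and villus axis.

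Of the 74 genes, 49 had a mean of at least 10 normalised counts over the 6 libraries and were tested, and 25 fell below it. A normalised count is the read count of a gene divided by the size factor of its library. A gene was called changed when its adjusted p was under 0.05 and its fold change exceeded 1.5, in a limma fit across all 18459 genes tested that compared LDL with PBS within each mouse. By this rule 7 genes rose with LDL, against a background of 5.68% of all genes tested, and 8 fell, against 3.46%. Together 15 of the 49 were called, where 9.14% of all genes tested were. The 7 that rose were Epha2, Epha4, Efnb2, Sema3b, Sema6a, Sema3e and Slit2. The 8 that fell were Ntn4, Dpysl5, Dpysl2, Nrp1, Sema5a, Sema7a, Sema4c and Epha7. The median log2 fold change of the 49 was 0.06, with 25 higher and 24 lower with LDL, and that of all genes tested was -0.02. The median size of the change, regardless of direction, was 0.49 on the log2 scale in the 49 and 0.20 over all genes tested. The values of LDL and PBS libraries did not overlap in 27 of the 49, and in 24.2% of all genes tested. Sema3e reached the mean of 10 only through its LDL libraries, and Efna2, which was not called, only through its PBS libraries. The presence of these genes among those tested and those without overlap thus already required a difference.

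Without the pairing by mouse, limma kept the call of 6 of the 15, namely Slit2 and Sema6a among those that rose and Ntn4, Dpysl5, Nrp1 and Sema5a among those that fell. That fit called 0.878% of all genes tested higher and 0.395% lower. DESeq2 on the recovered reads without the pairing kept 11 of the 15, all but Epha7, Sema7a, Sema3b and Sema4c, and called 6.47% of all genes tested. The 9 genes that limma did not call without the pairing moved in the same direction in all 3 mice, and the adjusted p given with each as without the pairing is that of limma. All 15 called genes had LDL and PBS values that did not overlap.

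**Figure D1:**
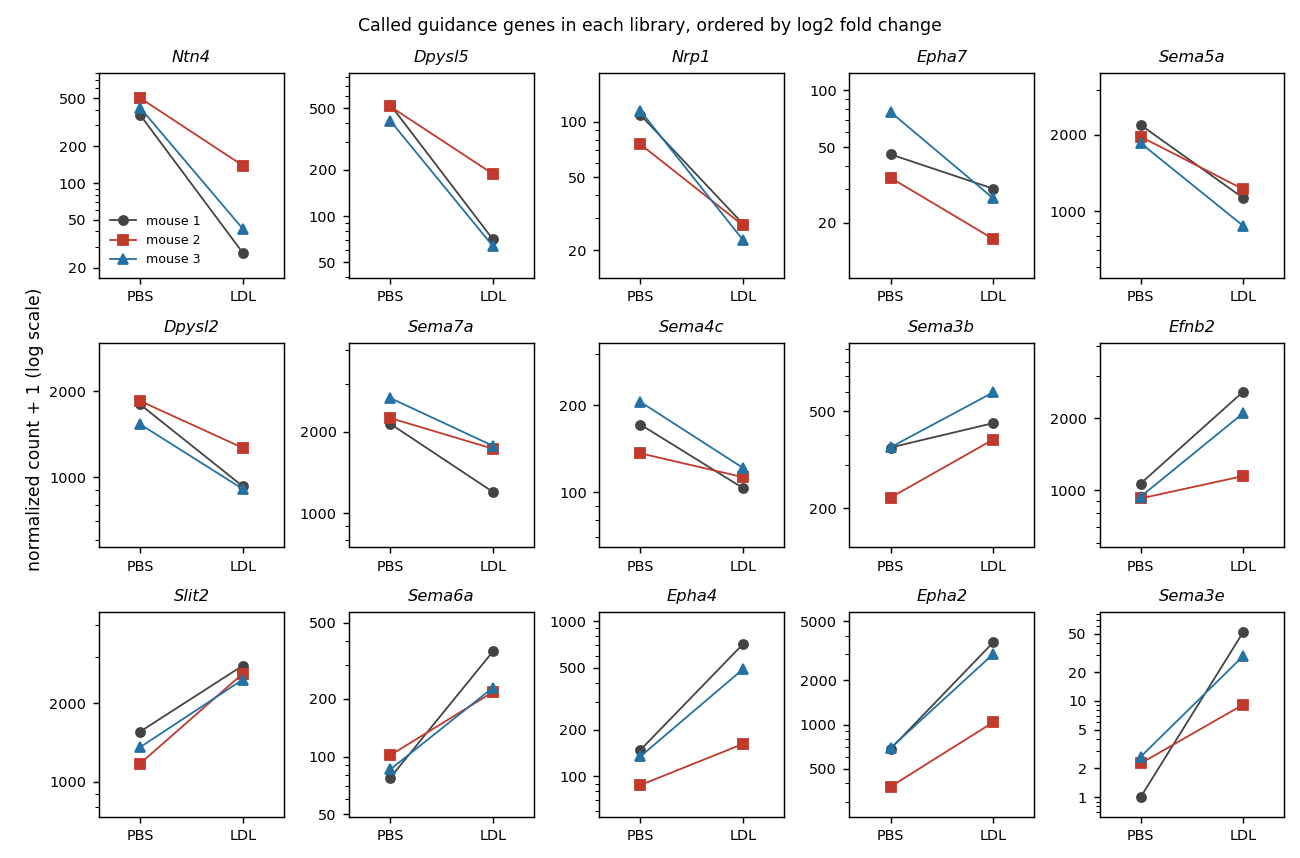
Normalised counts of the 15 called guidance genes in each library, plotted as count + 1 on a log axis, with the PBS and LDL libraries of the same mouse joined by a line. Every line of a gene runs in the same direction, and for 12 of the 15 genes the smallest change was that of mouse 2.

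Promoter sequences are shown for 3 genes whose calls were among the most stable, Epha2 and Slit2 (higher with LDL) and Ntn4 (lower). They are RefSeq promoters of the GRCm38.p6 assembly, matched as exact and unique sequences to GRCm39, and cut to the bases before the annotated first exon. Capitals mark motifs that were searched for on both strands. The stretches are Epha2 at chr4:141028282-141028531, Ntn4 at chr10:93476661-93476804 and Slit2 at chr5:48140247-48140479, all on the plus strand.
Epha2: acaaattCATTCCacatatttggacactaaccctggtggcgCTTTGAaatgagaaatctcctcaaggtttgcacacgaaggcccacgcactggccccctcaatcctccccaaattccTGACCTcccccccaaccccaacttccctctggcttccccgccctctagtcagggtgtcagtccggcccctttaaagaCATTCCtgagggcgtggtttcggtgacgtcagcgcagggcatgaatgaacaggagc
Ntn4: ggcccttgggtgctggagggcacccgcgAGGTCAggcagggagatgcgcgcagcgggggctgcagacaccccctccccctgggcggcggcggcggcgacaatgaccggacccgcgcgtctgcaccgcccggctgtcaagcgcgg
Slit2: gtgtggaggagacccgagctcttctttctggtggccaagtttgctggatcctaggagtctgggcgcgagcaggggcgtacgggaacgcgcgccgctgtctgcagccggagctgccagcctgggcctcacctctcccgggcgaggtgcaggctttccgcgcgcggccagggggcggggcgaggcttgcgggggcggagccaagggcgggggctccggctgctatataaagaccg

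The Epha2 stretch holds the TEAD motif CATTCC at 243 to 238 and again at 56 to 51 bases before the RefSeq start. It also holds the TCF/LEF motif CTTTGA at 209 to 204 bases before the start, and the nuclear receptor motif AGGTCA on the other strand, printed as TGACCT, at 133 to 128 bases. The Ntn4 stretch holds AGGTCA at 222 to 217 bases before the start, and lies in an intron of the transcript that starts further upstream. No letters of the Slit2 stretch are in capitals, because none of the 6 motifs searched occurs in it. GC content was 55.6% in the Epha2 stretch, 77.1% in that of Ntn4 and 70.4% in that of Slit2.

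Over the full 300-base promoters, which were available for 61 of the 74 genes and for 12 of the 15 called ones, each motif was found in few called genes. CTTTGA was in the promoters of Epha2 and Sema3e, and in 16.0% of all 32851 promoters. CATTCC was in those of Epha2 and Efnb2, and in 14.7% of all. AGGTCA was in those of Epha2, Ntn4, Nrp1 and Sema5a, and in 16.3% of all. The AP-1 motif TGANTCA was in that of Sema4c (7.81% of all), the E-box CACGTG in that of Sema3e (7.15%), and the amino acid response element TGATGNAA in none of the 12 (3.97%). A match describes the letters of the window and does not show a bound site.

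Libraries held 22061545 to 31073360 reads in genes. The LDL library of mouse 1 stood apart, with 68.3% of its reads in protein-coding genes against 77.1% to 81.8% in the other 5, and with 35781 genes detected against 29285 to 32751. In the labels, the animal identifier of mouse 3 begins with other letters than those of mice 1 and 2, although the genotype label of all 6 libraries is WT. Without mouse 1, 12 of the 15 genes kept their call against a background of 5.72% called, and Sema7a, Sema4c and Sema3e did not. Without mouse 2, 14 of the 15 kept their call, all but Sema3b, against a background of 16.0%. Dpysl3, Unc5b, Unc5a, Plxna1, Sema4b, Sema3c and Sema6b were called in addition there. Without mouse 3, 5 of the 15 kept their call (Ntn4, Dpysl5, Sema5a, Epha2 and Slit2), and the share of all genes tested that were called fell to 1.94%. The epithelial marker Epcam was high in every library, at 20049 to 24334. The 8 epithelial markers summed to 98467 to 130543 with LDL and 88060 to 91866 with PBS. Of these 8, 2 were called higher, Krt8 (log2 fold change 0.79) and Krt18 (0.93), and 0 lower.

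Markers of other cell states moved with the treatment. All 8 tested markers of fetal-like epithelium rose, with a summed normalised count of 22031, 1978 and 16917 in the LDL libraries of mice 1, 2 and 3 and of 1014, 122 and 732 in the PBS libraries, and adjusted p-values without the pairing were 0.0614 to 0.201. The summed level of goblet cell markers was 26857 to 32188 with LDL and 44449 to 49968 with PBS, and that of Paneth cell markers was 14225 to 17216 and 18094 to 29183. Single markers went both ways: of 7 goblet markers 3 fell and 1, Clca1, rose (log2 fold change 2.81, adjusted p = 0.000856), and of 8 Paneth markers 3 fell and 2 rose, Mmp7 by 0.75 and Pnliprp2 by 0.72 on the log2 scale. Summed enteroendocrine markers overlapped, at 7678 to 11962 and 9953 to 15431, and 2 of the 12 (Isl1 and Gip) fell. Among crypt stem cell and Wnt target markers 3 of 13 rose (Ascl2, Cd44 and Tnfrsf19) and 2 fell (Olfm4 and Smoc2). Of 8 enterocyte markers 3 rose and 1 fell. The 11 stromal markers summed to 104 to 184 with LDL and 186 to 201 with PBS. Of these, Vim (68.2 to 97.8 with LDL, 104 to 140.0 with PBS) and Pdgfrb (9.76 to 14.2 with LDL, 17.9 to 29.8 with PBS) were lower with LDL in all 3 mice, Acta2 reached at most 51.0 and Myh11 at most 19.5, and the other 7 were at most at 9.76 in any library. Of the neuronal markers, Elavl4 reached at most 8.36, while the glial marker S100b rose and Sox10 reached at most 20.4. The 8 immune markers summed to 248 to 318 with LDL and 249.8 to 319.5 with PBS, mainly Cd68 (112 to 176 over the 6 libraries) and Lyz2 (75.8 to 164), with Csf1r at most at 30.9 and the pan-leukocyte marker Ptprc at most at 12.2. In bulk RNA, fewer cells of a type and less RNA per cell cannot be told apart, and the part of these cell states in the values of the guidance genes was not tested.

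Of the 3 tested netrins, netrin-4 was called. Ntn4 (ENSMUSG00000020019, GRCm39 chr10:93476543-93583069) encodes a secreted, laminin-related netrin that binds laminins of the basement membrane. Its normalised counts were 25.6, 138 and 41.0 in the LDL libraries of mice 1, 2 and 3, and 362, 499.5 and 415 in the corresponding PBS libraries. Every LDL value lay well below every PBS value. Within mice the level was 14.1-fold, 3.61-fold and 10.1-fold lower with LDL, and the log2 fold change was -2.98 ± 0.32 (SE, n = 3 mice; limma adjusted p = 0.00131). This was the largest decrease among the guidance genes tested. Of 14 alternatives of processing and design, any fold change keeps every call of the main fit by construction, and Ntn4 was called under all 14. Its exons share 92 bases with those of Gm15915 on the opposite strand, whose mean normalised count was 19.0 and whose log2 fold change was -1.94. Whether the counting used strand was not given in the sources used here, so reads in such shared bases could belong to either gene.

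Per length, as RPKM (reads scaled to merged exon length and library depth), Ntn4 stood at 4.24 ± 0.473 (SD, n = 3) with PBS and 0.681 ± 0.615 with LDL. It made up 93.4%, 93.2% and 95.3% of the summed netrin level in the PBS libraries of mice 1, 2 and 3, and 47.2%, 88.5% and 65.0% in the LDL libraries. Netrin-1, the classical diffusible netrin, was read at 34.2, 6.37 and 17.6 normalised counts with LDL and 21.4, 22.4 and 8.96 with PBS. Its groups overlapped, and it was higher with LDL in mice 1 and 3 and lower in mouse 2. Its log2 fold change of -0.04 had a 95% interval of -1.21 to 1.13 (adjusted p = 0.970). Changes of about that size in either direction were thus undetectable in these libraries. Ntn3 was lower with LDL in all 3 mice without passing the test (log2 fold change -0.76, adjusted p = 0.171), and Ntn5 had at most 2.44 normalised counts in any library.

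Among netrin receptors, 0 of the 3 tested were called by limma, by edgeR or by DESeq2 in the paired fits of all 3 mice. Of the 3, 1 had an unadjusted limma p under 0.05, as had 5554 of all 18459 genes tested. Without mouse 2, limma called Unc5b and Unc5a, and 16.0% of all genes tested. Neogenin (Neo1), a receptor for netrins and for repulsive guidance molecules, was the most abundant, at 13.4 ± 0.723 RPKM with LDL and 15.2 ± 1.51 with PBS. Its normalised counts were 4262, 4079 and 3943 with LDL and 4856, 4419 and 4324 with PBS. Neo1 was thus lower in every LDL library than in any PBS library, but by a log2 fold change of only -0.15 (95% interval -0.31 to 0.02, adjusted p = 0.224).

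Unc5b, a receptor for repulsive netrin responses, gave 701, 290.1 and 672 with LDL and 586, 370.3 and 341 with PBS. Mice 1 and 3 had more with LDL and mouse 2 less, and no change was called in the fit of all 3 mice (log2 fold change 0.29, adjusted p = 0.411). Unc5a was lower in all 3 mice (log2 fold change -0.45, adjusted p = 0.159). Dcc, the receptor for attraction to netrin-1, was too low for the test. It was read at 14.6, 0 and 6.69 normalised counts with LDL and 1.02, 0 and 0 with PBS, from 20 reads against 1. Of the 20 reads, 12 came from the LDL library of mouse 1, which stood apart with the most genes detected. The ratio was 19.3, with a 95% exact interval of 3.09 to 802 that covers counting error only. Unc5c and Unc5d also stayed below the mean of 10.

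Slit2 rose and its receptors were barely read. Slit2 (ENSMUSG00000031558, chr5:48140480-48465075) encodes a large secreted ligand of Robo receptors. Its normalised counts were 2789, 2600.0 and 2466 with LDL and 1557, 1174 and 1356 with PBS. The LDL values lay close together and all above the PBS values, with a 1.79-fold, 2.21-fold and 1.82-fold increase in mice 1, 2 and 3. The log2 fold change was 0.95 ± 0.09 (SE, n = 3 mice; adjusted p = 0.000644, and 0.0157 without the pairing). Slit2 was called under all 14 alternatives, and unlike most called genes it changed most in mouse 2.

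Per length Slit2 stood at 3.08 ± 0.0986 RPKM with LDL and 1.65 ± 0.307 with PBS, and it made up 87.1% to 96.7% of the summed slit and Robo level in every library. Slit1 did not pass the test (log2 fold change -0.45, adjusted p = 0.262). None of Robo1 to Robo4 reached the mean of 10. The highest Robo value in any library was 13.4 normalised counts, of Robo3 in the LDL library of mouse 1, and no Robo gene had more than 11 reads in a library.

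**Figure D2:**
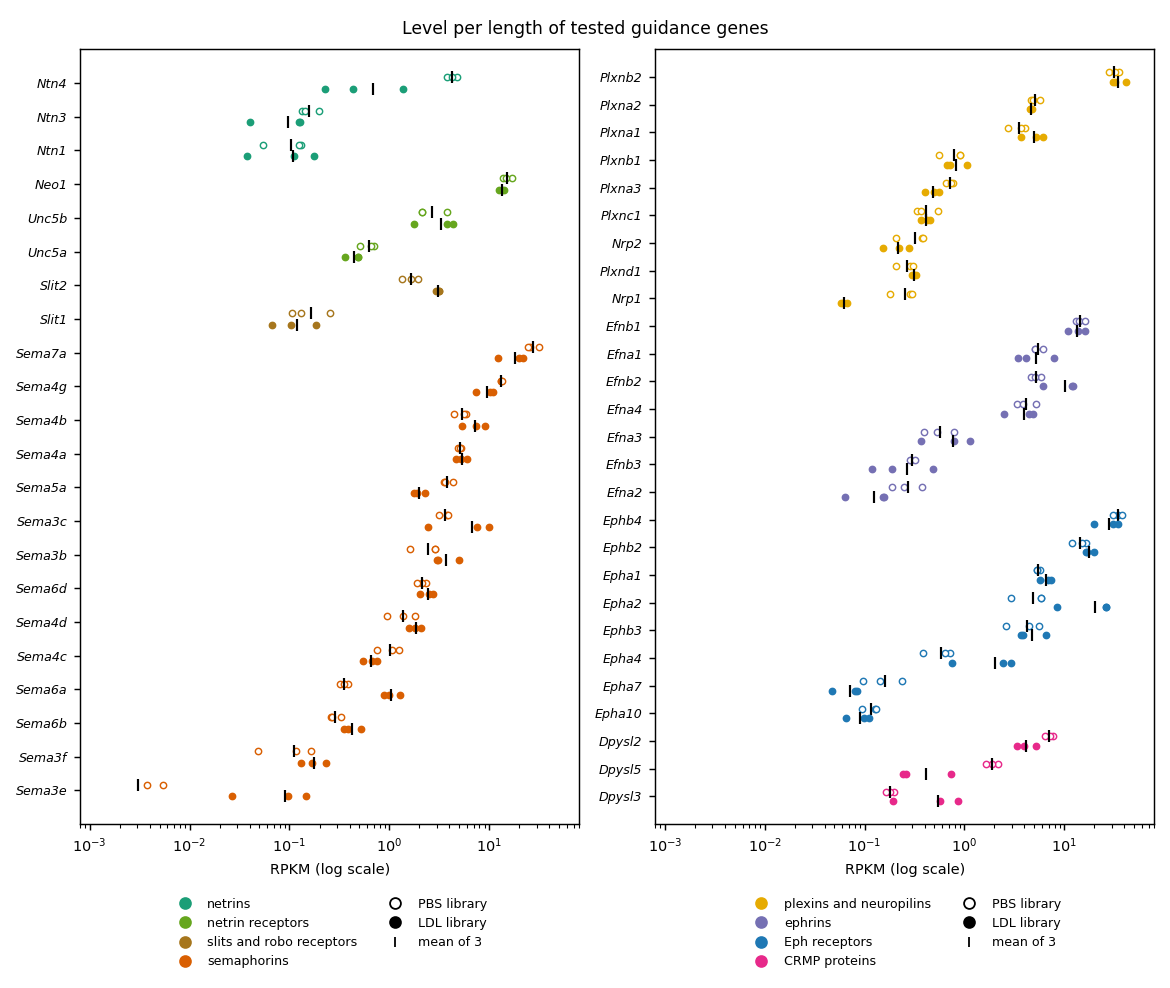
Level per length (RPKM, log axis) of the 49 tested guidance genes, coloured by family, with open points for PBS libraries, filled points for LDL libraries and a bar at the mean of 3. Plxnb2 and Ephb4 lie highest, and the LDL points of Ntn4 and Nrp1 lie below and those of Epha2 above their PBS points. The PBS value of Sema3e in mouse 1 is 0 and cannot be drawn on this axis.

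The semaphorins split by direction, with 3 of 14 tested called higher and 3 called lower. The secreted class 3 semaphorins and the membrane-bound classes are described in turn. Of 7 class 3 genes 4 were tested, all 4 had a higher mean with LDL, and 2 were called. These counts include Sema3e, which reached the mean of 10 only through its LDL libraries. They leave out Sema3d, which was lower with LDL and fell below that mean.

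Sema3e (ENSMUSG00000063531, chr5:14075290-14306719), a secreted ligand that binds plexin D1 without a neuropilin, was read at 51.2, 8.18 and 28.4 normalised counts with LDL and 0, 1.24 and 1.63 with PBS. It was near absent from the PBS libraries, with 3 reads in all against 85 in the LDL libraries, of which 42 were from mouse 1. The ratio of the summed reads, scaled by the size factors, was 27.4, with a 95% exact interval of 9.06 to 135 that covers counting error only. The fitted log2 fold change was 3.74 ± 0.67 (adjusted p = 0.00986, and 0.0537 without the pairing), and its size depends on the pseudocount of 1 because 1 PBS value is 0. Its receptor Plxnd1 was tested and not called (log2 fold change 0.29, adjusted p = 0.372).

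Sema3b (ENSMUSG00000057969, chr9:107474872-107486456), which signals through neuropilins, was read at 446, 382 and 598 with LDL and 354, 219.9 and 355 with PBS. The lowest LDL value lay just above the highest PBS value, and the log2 fold change was 0.63 ± 0.12 (adjusted p = 0.0129, and 0.195 without the pairing). Sema3b was called under 10 of the 14 alternatives. Sema3c was more variable, at 2395, 522 and 1521 with LDL and 766, 871 and 646 with PBS. It was higher with LDL in mice 1 and 3 and lower in mouse 2, and was not called (log2 fold change 0.71, adjusted p = 0.256). Sema3d fell below the mean of 10 but moved the other way from the tested class 3 genes, at 4.88, 1.82 and 0.836 with LDL and 10.2, 16.2 and 9.77 with PBS. Its groups did not overlap, and without the filter its adjusted p was 0.0680.

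Of the 10 tested membrane-bound semaphorins, Sema6a rose and Sema5a, Sema7a and Sema4c fell. Sema6a, a transmembrane ligand of class A plexins, was read at 354, 216 and 228 with LDL and 76.6, 101 and 84.7 with PBS. All 3 LDL values lay well above every PBS value, and the log2 fold change was 1.57 ± 0.21 (adjusted p = 0.00313, and 0.0218 without the pairing).

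Sema5a (ENSMUSG00000022231, chr15:32244919-32696487), a transmembrane semaphorin with thrombospondin repeats, was read at 1125, 1219 and 873 with LDL and 2187, 1966 and 1855 with PBS. The groups were far apart, at a log2 fold change of -0.91 ± 0.09 (adjusted p = 0.00103, and 0.0269 without the pairing), and Sema5a was called under all 14 alternatives. Its exons share 631 bases with Snhg18 on the opposite strand, whose log2 fold change was -0.64.

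Sema7a (ENSMUSG00000038264, chr9:57847375-57870151), anchored to the membrane by a lipid and able to bind integrins as well as plexin C1, was the most abundant semaphorin. Its level per length was 18.1 ± 5.10 RPKM with LDL and 27.4 ± 3.76 with PBS, from normalised counts of 1198, 1731 and 1774 against 2139.6, 2247 and 2665. The change was near the 1.5-fold limit, at -0.60 ± 0.10 on the log2 scale (adjusted p = 0.00679, and 0.114 without the pairing), and the call was lost under 7 of the 14 alternatives. Sema4c (ENSMUSG00000026121, chr1:36587720-36597963), a ligand of plexin B2, was read at 102, 112 and 120.4 with LDL and 170.5, 135 and 204 with PBS. Its log2 fold change was -0.59 ± 0.16 (adjusted p = 0.0417, and 0.146 without the pairing), and its call was also lost under 7 of 14 alternatives. The exons of Sema4c share 1091 bases with D430040D24Rik on the opposite strand, whose mean normalised count was 8.91.

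A further 3 semaphorins passed the adjusted p threshold with a change under 1.5-fold. Sema4g was lower with LDL (log2 fold change -0.47, adjusted p = 0.00808), and Sema4b (0.45, adjusted p = 0.0265) and Sema4d (0.49, adjusted p = 0.0212) were higher. Sema4a, Sema6b, Sema6d and Sema3f had higher means with LDL and adjusted p-values of 0.456, 0.122, 0.161 and 0.113.

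**Figure D3:**
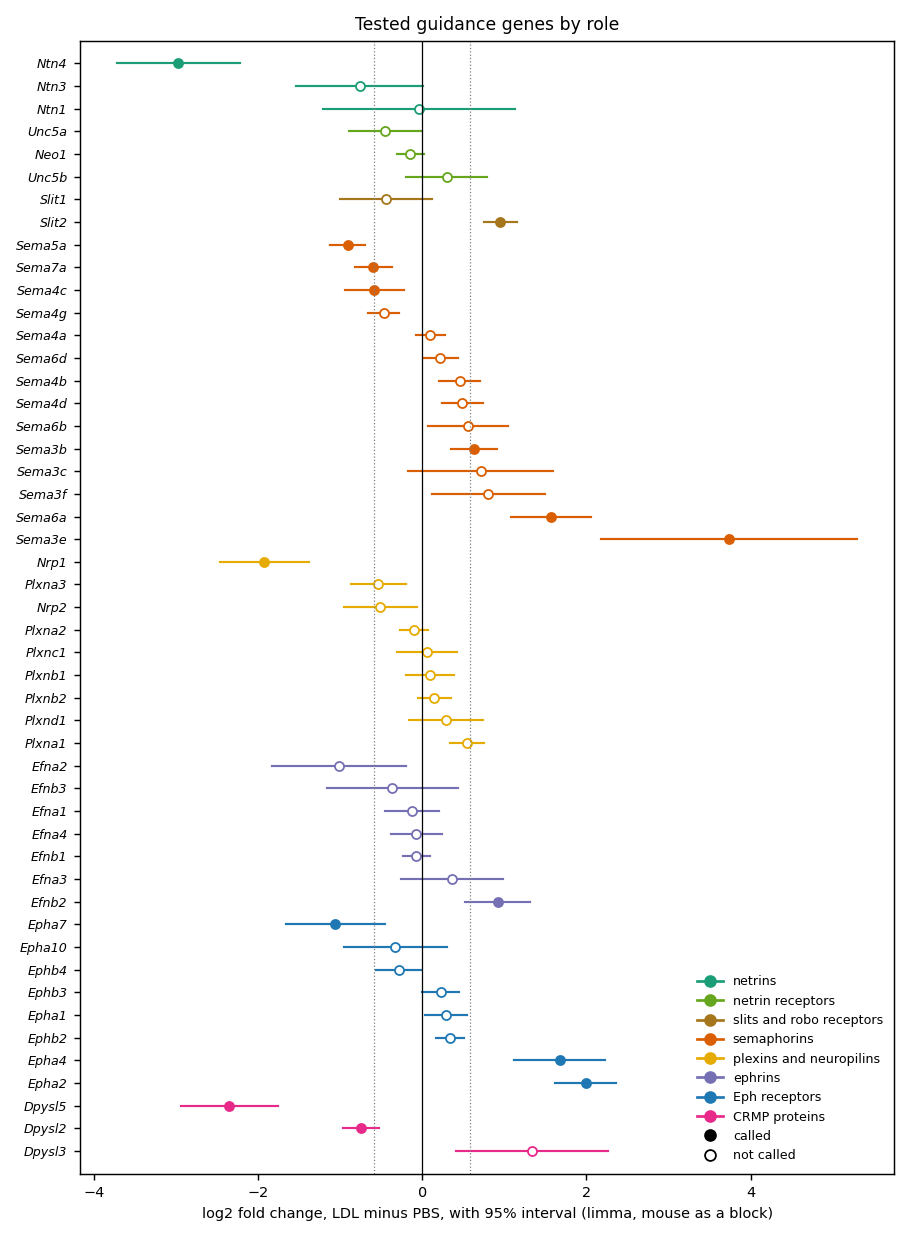
Log2 fold change of LDL against PBS for the 49 tested guidance genes, coloured by family, with 95% intervals from limma, filled points for called genes and dotted lines at 1.5-fold. Filled points lie on both sides of 0, from -2.98 for Ntn4 to 3.74 for Sema3e, and the plexins have open points.

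The 7 tested plexins, signalling receptors of semaphorins, all had fitted changes under 1.5-fold, while a neuropilin fell. None of the 7 tested plexins was called by the main limma fit, or by edgeR or DESeq2 with the pairing. An unadjusted limma p under 0.05 was found in 2 of the 7, and in 5554 of all 18459 genes tested. Those 2 plexins were Plxna1 (log2 fold change 0.54, adjusted p = 0.00660) and Plxna3 (-0.54, adjusted p = 0.0449), both under 1.5-fold. Limma called Plxna1 without mouse 2, where 16.0% of all genes tested were called, and Plxna3 with quantile normalisation, where 8.69% were. Plxnb2, the receptor of class 4 semaphorins in epithelia, was the most abundant guidance gene measured in its family, at 34.6 ± 5.86 RPKM with LDL and 31.9 ± 3.59 with PBS. Its normalised counts of 7288, 6771 and 8226 with LDL and 7199.7, 6325 and 6617 with PBS overlapped (log2 fold change 0.14, 95% interval -0.06 to 0.35, adjusted p = 0.321).

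Nrp1 (ENSMUSG00000025810, chr8:129085085-129231082), the co-receptor of class 3 semaphorins and of vascular endothelial growth factor, was low and fell. It was read at 26.8, 26.4 and 21.7 normalised counts with LDL and 108, 74.6 and 114 with PBS. The LDL libraries lay close together, 4.03-fold, 2.83-fold and 5.24-fold below the PBS libraries of mice 1, 2 and 3. The log2 fold change was -1.93 ± 0.23 (adjusted p = 0.00218, and 0.0157 without the pairing), and the call was lost only without mouse 3 among the 14 alternatives. Per length Nrp1 made up 0.473% to 0.679% of the summed plexin and neuropilin level with PBS and 0.107% to 0.157% with LDL. Nrp2 was lower in all 3 mice without passing the test (log2 fold change -0.51, adjusted p = 0.114).

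Among the Eph receptors 2 EphA members rose and 1 fell, while the 3 tested EphB members were not called by limma, edgeR or DESeq2. Of these 3, 2 had an unadjusted limma p under 0.05, as had 5554 of all 18459 genes tested. Epha2 (ENSMUSG00000006445, chr4:141028540-141056695), a receptor tyrosine kinase abundant in epithelia that binds ephrin-A1, was read at 3605, 1035 and 3007 with LDL and 682, 378 and 691 with PBS. Mouse 2 had the lowest value in both groups, yet its LDL value exceeded every PBS value. The increase was 5.29-fold, 2.74-fold and 4.35-fold in mice 1, 2 and 3, with a log2 fold change of 1.99 ± 0.16 (adjusted p = 0.000378). Without the pairing the adjusted p was 0.0806, and Epha2 was called under the other 13 alternatives.

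Epha4 (ENSMUSG00000026235, chr1:77343822-77492816), which binds ephrins of both classes, had the same order of LDL libraries, at 711, 161 and 490.0 with LDL and 147, 87.0 and 134 with PBS. Its log2 fold change was 1.67 ± 0.24 (adjusted p = 0.00408, and 0.131 without the pairing). Epha7 (ENSMUSG00000028289, chr4:28813034-28967507) went the other way at a low level, with 29.3, 15.5 and 25.9 against 44.9, 33.6 and 75.7. Its log2 fold change was -1.06 ± 0.26 (adjusted p = 0.0311, and 0.176 without the pairing), and it was called in 9 of the 13 alternatives that tested it. Epha1 was higher with LDL in all 3 mice without passing the test (log2 fold change 0.29, adjusted p = 0.122).

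Ephb4 was the most abundant Eph receptor per length with PBS, at 34.6 ± 3.65 RPKM, and stood at 28.3 ± 7.45 with LDL. Its normalised counts were 2926, 4445 and 3769 with LDL and 4361, 4249 and 4847 with PBS, lower with LDL in mice 1 and 3 and higher in mouse 2 (log2 fold change -0.29, adjusted p = 0.147). Ephb2, a Wnt target of the crypt base, gave 6328, 5397 and 6177 with LDL and 5164, 4147 and 4856 with PBS. Every LDL value exceeded every PBS value, by a log2 fold change of 0.34 (95% interval 0.17 to 0.51, adjusted p = 0.0201), which is under 1.5-fold. Ephb3, which shares the crypt base with Ephb2, gave 789, 667 and 1105 against 764, 493 and 974. It was higher with LDL in each mouse, by less than the spread between mice (log2 fold change 0.22, adjusted p = 0.177).

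The makeup of the summed Eph receptor level followed these changes. Epha2 took 8.55%, 5.42% and 8.20% of the summed Eph receptor RPKM in the PBS libraries of mice 1, 2 and 3, and 34.0%, 12.3% and 28.1% in the LDL libraries. Ephb4 took 51.0%, 56.9% and 53.6% with PBS and 25.8%, 49.2% and 32.8% with LDL. The share of Ephb2 stayed within 21.3% to 24.0% in all 6 libraries. The summed level itself was 54.2 to 71.1 RPKM with PBS and 69.5 to 93.8 with LDL. The summed level of the fetal-like markers had the same order of LDL libraries as Epha2 and Epha4, highest in mouse 1 and lowest in mouse 2, although Ly6a, Ly6d and Krt4 were highest in mouse 3, and their part in these values was not tested.

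**Figure D4:**
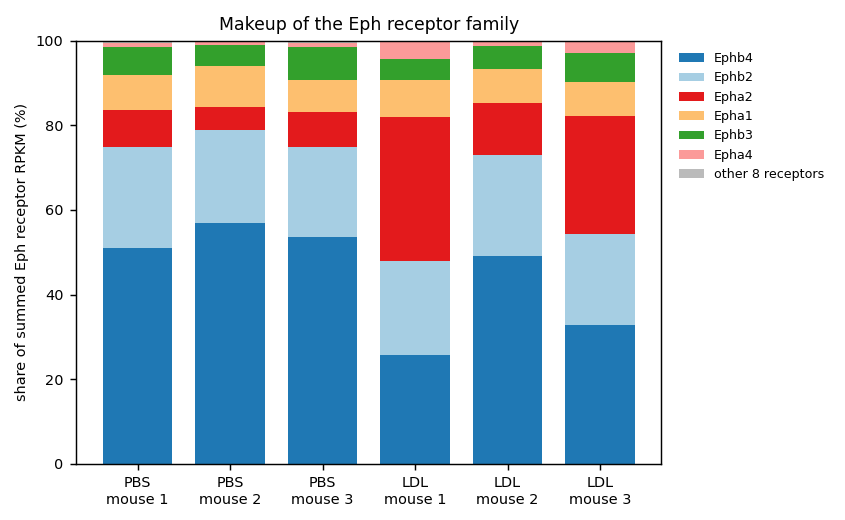
Share of the 6 most abundant receptors, and of the other 8 together, in the summed Eph receptor level per length (percent of RPKM) in each library, as stacked bars that start at 0. Epha2 takes 5.42% to 8.55% in the PBS libraries and 12.3% to 34.0% in the LDL libraries, while the share of Ephb2 stays within 21.3% to 24.0%.

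Of the ephrins, the membrane-anchored ligands of Eph receptors, 1 of 7 tested was called. Efnb2 (ENSMUSG00000001300, chr8:8667226-8711249), the main ligand of EphB4, was read at 2586, 1145 and 2101 with LDL and 1065, 922 and 938 with PBS. The groups did not overlap, but mouse 2 rose by only 1.24-fold where mice 1 and 3 rose by 2.43-fold and 2.24-fold. The log2 fold change was 0.92 ± 0.17 (adjusted p = 0.0112, and 0.125 without the pairing). Its exons share 702 bases with Gm45075 on the opposite strand.

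Efnb1, the ephrin-B ligand of EphB2 and EphB3, was the most abundant ephrin at 13.6 ± 2.58 RPKM with LDL and 14.5 ± 1.51 with PBS. Its normalised counts of 1264, 1428 and 1551 with LDL and 1313, 1523 and 1627 with PBS overlapped, and the 95% interval of its log2 fold change, -0.24 to 0.10, lay within 1.5-fold in both directions (adjusted p = 0.563). Efna1, a ligand of EphA2, gave a log2 fold change of -0.13 (95% interval -0.46 to 0.20, adjusted p = 0.596). Efna2 was low and lower with LDL in all 3 mice (log2 fold change -1.02, adjusted p = 0.0927), and it reached the mean of 10 only through its PBS libraries.

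The collapsin response mediator proteins, cytoplasmic proteins that bind tubulin and relay semaphorin signals, had 2 of 3 tested genes called lower. Dpysl5 (ENSMUSG00000029168, chr5:30868908-30956719), also known as CRMP5, was read at 69.5, 186 and 62.7 normalised counts with LDL and 526, 512 and 414 with PBS. As for Ntn4, the LDL library of mouse 2 was the highest of its group and still far below the PBS libraries. Dpysl5 was 7.56-fold, 2.75-fold and 6.59-fold lower with LDL in mice 1, 2 and 3, at a log2 fold change of -2.35 ± 0.26 (adjusted p = 0.00138, and 0.0345 without the pairing). It was called under all 14 alternatives. Its exons share 314 bases with Gm15461 on the opposite strand, whose mean normalised count was 1.62.

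Dpysl2 (ENSMUSG00000022048, chr14:67040313-67148522), or CRMP2, which mediates growth cone collapse by class 3 semaphorins, was the most abundant of the family. It stood at 4.17 ± 0.930 RPKM with LDL and 7.08 ± 0.624 with PBS, from normalised counts of 927, 1265 and 907 against 1797, 1848 and 1531. No LDL value reached the PBS range, and the log2 fold change was -0.75 ± 0.09 (adjusted p = 0.00255, and 0.0577 without the pairing). It shares 632 exon bases with Pnma2 on the opposite strand, whose mean normalised count was 17.1 and whose log2 fold change was -1.14. Dpysl3 was higher in mice 1 and 3, at 173 and 93.7 with LDL against 33.7 and 28.5 with PBS, and differed little in mouse 2, at 33.6 in both groups (log2 fold change 1.34, adjusted p = 0.0606). Dpysl3 was called by edgeR with the pairing and by DESeq2 with and without it.

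Changes were unequal between mice. Of the 15 called genes, 12 had their smallest change in mouse 2, 3 in mouse 1 and 0 in mouse 3. The largest change was that of mouse 1 for 9 genes, of mouse 3 for 4 and of mouse 2 for 2. The direction was shared by all 3 mice in each of the 15. Mouse 2 was also the mouse with the lowest fetal-like marker level in both groups, which is given as a measured fact and whose part in these differences was not tested.

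**Figure D5:**
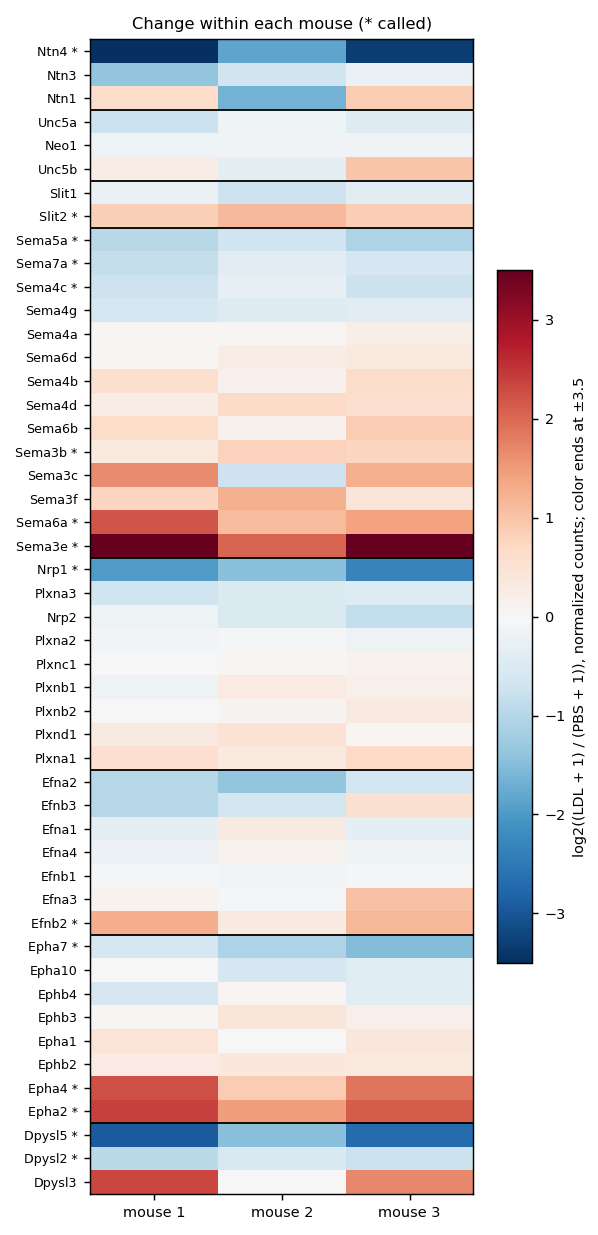
Log2 ratio of LDL to PBS, each normalised count + 1, within each mouse for the 49 tested genes, as a heat map with red for higher and blue for lower and stars at the 15 called genes. The column of mouse 2 is the palest in 12 of the 15 starred rows, and no starred row has both colours.

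The 25 genes below the filter had at most 16 reads in any library and are named here in full. They were Ntn5, Dcc, Unc5c, Unc5d, Slit3, Robo1, Robo2, Robo3, Robo4, Sema3a, Sema3d, Sema3g, Sema4f, Sema5b, Sema6c, Plxna4, Plxnb3, Efna5, Epha3, Epha5, Epha6, Epha8, Ephb1, Ephb6 and Dpysl4. Without the filter 0 of the 25 were called by limma, and 3 had an unadjusted p under 0.05. The groups did not overlap in 2 of them, Sema3d (lower with LDL) and Sema3a, read at 13.4, 4.55 and 4.18 with LDL and 2.04, 1.24 and 2.44 with PBS.

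A list of 52 further genes of these pathways, the effectors and co-factors that link guidance receptors to the cytoskeleton, had 42 tested members. Of these 4 rose and 2 fell, which is 14.3% against 9.14% of all genes tested. Ablim1, an actin-binding LIM protein, rose by a log2 fold change of 1.67 (adjusted p = 0.00389), with 1623, 630.2 and 1381 normalised counts with LDL and 398, 359 and 303 with PBS. Srgap1, a GTPase-activating protein that acts downstream of Slit and Robo, rose by 1.11 (adjusted p = 0.0262), Limk1, a kinase of cofilin, by 0.84 (adjusted p = 0.0204), and Kalrn, a guanine nucleotide exchange factor, by 0.78 (adjusted p = 0.0413). Vav3, an exchange factor that Eph receptors recruit, fell by 1.29 (adjusted p = 0.00591), with 141, 324 and 153 against 499, 505 and 414. Without the pairing, limma called 0 of the 42, 6 of them passed 1.5-fold at an unadjusted p under 0.05, and DESeq2 called 3.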

How the data were processed

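Total RNA of organoids was depleted of ribosomal RNA and sequenced from TruSeq Stranded libraries. Per the labels and the study's methods, the authors used STAR, featureCounts and DESeq2 on GRCm39 and deposited 1 table of normalised counts (a signal on the count scale). The strand setting and annotation release were not given in the sources used here. Every deposited value was a whole number of reads divided by 1 size factor per library (100% within a tolerance of 0.01), so reads were recovered. Library depth was 22061545 to 31073360 reads. Of 55416 rows, 54749 matched GENCODE M39, which gave symbols, positions and merged exon lengths. RPKM were computed from the recovered reads.

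The main test was limma 3.58.1 (R 4.3.3; two-sided, moderated with a trend) on log2(normalised count + 1), in genes whose mean normalised count reached 10, with mouse as a block and Benjamini-Hochberg adjustment over all 18459 genes. Fold changes on this scale understate those of low genes. The block was used because the labels give both libraries of a number the same animal identifier. Deviations from the group means correlated at 0.484, 0.421 and 0.462 within mice 1, 2 and 3 and were negative between mice. Alternatives were other pseudocounts (0.5, 5), filters (none, 50), scalings, no block, leaving out each mouse, edgeR 4.0.16 and DESeq2 1.42.0 on the recovered reads, and any fold change. The last is the main fit without the fold limit, so no call of the main fit could be lost under it. Scripts were tested on simulated counts.

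The genes described with a value in every library were the called ones, the most abundant per length in each family, and 11 with a known gut role or named in earlier results. The members, lists and this rule were chosen with earlier results of these data known. Values of other genes (Dpysl3, Sema3c, Sema3d, Sema3a, Ablim1 and Vav3) were added after they were seen. Values of a few genes outside the 74, among them 1 called effector, are not reported here. Motif searches used RefSeq promoters (GRCm38.p6), 250 bases before to 50 after the start.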

Additional observations from a re-analysis of the deposited data

How the results depend on the processing

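The count of guidance genes called higher (7) was 2 with no replicate block, 11 at any fold change, and 2 to 12 when 1 mouse was left out; the count called lower (8) was 4 with no replicate block, 5 with DESeq2 with or without the block, and 3 to 9 when 1 mouse was left out. Leaving out mouse 3 gave the fewest calls of both kinds and leaving out mouse 2 the most. Of all genes tested, 1.94% were called without mouse 3 and 16.0% without mouse 2, against 9.14% in the main fit. That share was 1.27% with no replicate block and 15.7% at any fold change. The count of effectors called (6) was 0 with no replicate block, 3 with DESeq2 and no block, 12 at any fold change and 0 to 11 when 1 mouse was left out. In limma 9 of the 15 calls were lost without the block; DESeq2 without it kept 11 of the 15. The direction reversed for Ntn1, whose log2 fold change ranged from -0.51 to 0.77 (without mouse 2) when 1 mouse was left out and was 0.14 with edgeR, 0.046 with DESeq2 and the block and 0.16 with DESeq2 without it, and for Unc5b, which ranged from -0.046 (without mouse 3) to 0.62 (without mouse 2); neither gene was called in the main fit, and the cause was not tested. Of 318 values for 23 named genes under 14 alternatives, 278 kept direction and call status, 33 lost and 2 gained the call, and 5 reversed. A call could be lost through the fold limit alone, as for Sema7a with edgeR (adjusted p = 0.00433). Of the 2 gained, Ephb2 was called only at any fold change, where the fold limit is dropped. Sema3e was not tested at a mean of at least 50 or without mouse 1. No pseudocount, filter or scaling moved the count of calls in either direction by more than 1.5 times. With 3 mice per treatment and at most 16 reads in any library, differences in the 25 untested genes were largely not detectable.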

Other observations

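Of the effectors and co-factors, 6 passed the adjusted p threshold with a change under 1.5-fold, and they are named here after their values were seen. Trio, an exchange factor of the Dcc pathway, was higher with LDL in all 3 mice (log2 fold change 0.42, adjusted p = 0.00803), as were Pak1 (0.42, adjusted p = 0.0191), a protein kinase, and the actin-oxidizing enzymes Mical2 (0.38, adjusted p = 0.0238) and Mical3 (0.36, adjusted p = 0.0307). Rgmb, a ligand of neogenin, was lower with LDL, at 2214, 3213 and 2837 normalised counts against 3921, 3522 and 4881 (log2 fold change -0.58, adjusted p = 0.0253), and Vegfa, a ligand of neuropilin-1, was lower as well (-0.49, adjusted p = 0.0335).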
